A study of Mus musculus with 12 samples.

Results

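Integrin genes encode the subunits of the main cell surface receptors for the extracellular matrix, and laminin genes encode the chains of the main glycoproteins of basement membranes. Members were the protein-coding genes of the expression table whose symbols have the form of an integrin α or β gene or of a laminin α, β or γ chain gene. Of 42 genes with such a symbol, Itgb1bp1, Itgb1bp2 and Itgbl1, which encode integrin-binding or integrin-like proteins, were left out. The remaining 39 of the table's 55487 genes comprised 18 integrin α, 9 integrin β, 5 laminin α, 3 laminin β and 3 laminin γ genes and Itgb3bp. Itgb3bp fits the form of the symbol but encodes a binding protein and no subunit, and it is described apart.

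Transcripts were sequenced from male germ cells of the mouse testis in fetal life (E13.5 and E16.5, in days of gestation), on the day of birth (P0) and on postnatal day 3 (P3), with 3 libraries per stage and 12 in all. The cells came from Mvh-Venus transgenic mice, in which a fluorescent reporter marks the germ line. Gonocytes are testicular germ cells that have not yet become spermatogonia, and whether the P3 libraries also held spermatogonia was not tested. Titles and source names call every sample wild type, whereas the genotype tag reads Morc1 (+/-) at E13.5 and P0 and Morc1 (-/-) at E16.5 and P3. Libraries were therefore grouped by stage. Stage and tag cannot be told apart in the comparisons of consecutive stages, while P0 against E13.5 and P3 against E16.5 stay within 1 tag. The labels do not say whether the libraries of a stage came from separate animals, so p-values measure the spread between libraries, which may be technical. Libraries are named 1, 3 and 4 after the column heads, and values by library are given in that order.

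Each integrin is a pair of 1 α and 1 β chain, and the α chain largely sets the ligand. The α chains of Itga3, Itga6 and Itga7 make laminin receptors with the β chain of Itgb1, and that of Itga6 also with that of Itgb4, whereas the chain of Itgav pairs with several β chains, those of Itgb3 and Itgb5 among them, to bind vitronectin and fibronectin. Each laminin joins 1 α, 1 β and 1 γ chain. In the newborn testis gonocytes move from the centre of the cords to the basement membrane, and the products of Itga6 and Itgb1 are used as surface markers of the spermatogonial stem cells that arise from them.

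The values are normalized counts, that is, the reads of a gene over the size factor of its library. The libraries held 40946616 to 51533747 reads assigned to genes. The 8 germ cell markers, none of them at the floor of 3 reads in a stage, summed to 142360 to 150340 normalized counts per library at P0 and to 245690 to 282710 at the other stages. This lower sum depends on the file's scaling, because as a percent of assigned reads P0 was not the lowest stage. In the library with the highest percent, these markers took 0.635% for P0 and 0.612% for P3. The matching values were 0.736% for E16.5 and 0.498% for E13.5. Markers of other testis cells were present at lower levels, and those of Sertoli, peritubular myoid, platelet and mast cells were highest at P0. The 10 Sertoli cell markers summed to 12713 to 24704 at P0 and to 3255 to 7955 at the other stages, and the 6 peritubular myoid markers to 4839 to 5432 at P0 and 945 to 1106 at P3. The 9 Leydig and interstitial markers summed to 2037 to 7064 at P0 and 863 to 926 at P3, where Insl3 was at 0 in every library. In a mixture of cells, fewer cells of a type and less RNA per cell cannot be told apart. The number of genes with a read also differed, from 22678 to 22774 per library at E13.5 to 34207 to 34857 at P0.

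**Figure D1:**
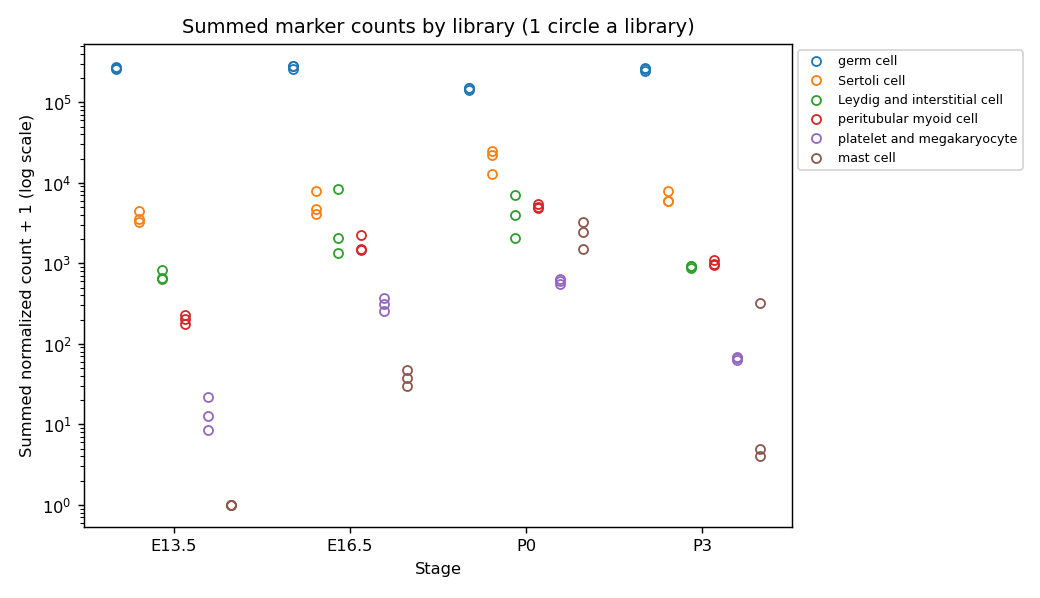
Summed normalized counts + 1 (log axis) of 6 marker lists in each library, by stage; each circle is 1 library. Germ cell markers were the highest list at every stage, and Sertoli, peritubular myoid, platelet and mast cell markers were highest at P0.

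All 39 members passed the filter on low values, some only through the stage in which they were high, and by limma's F-test over stages all 39 passed an adjusted p of 0.05 (Benjamini-Hochberg), as did 95.2% of the 22384 genes tested. The lowest stage was E13.5 for 27 members, E16.5 for 3, P0 for 5 and P3 for 4. The highest stage was P0 for 19 members, E16.5 for 9, P3 for 8 and E13.5 for 3. Most members were thus lowest at E13.5, and P0 was the most frequent highest stage. Exceptions were Itgb1, Itgb5 and Itga6, the 3 integrin genes with the highest level per kilobase of exon at P3. They were high at E13.5 and highest at P3. The highest and lowest stages were not counted over all genes. Of all genes, 34207 to 34857 per library had a read at P0, against 22678 to 22774 at E13.5 and 25749 to 26285 at P3.

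**Figure D2:**
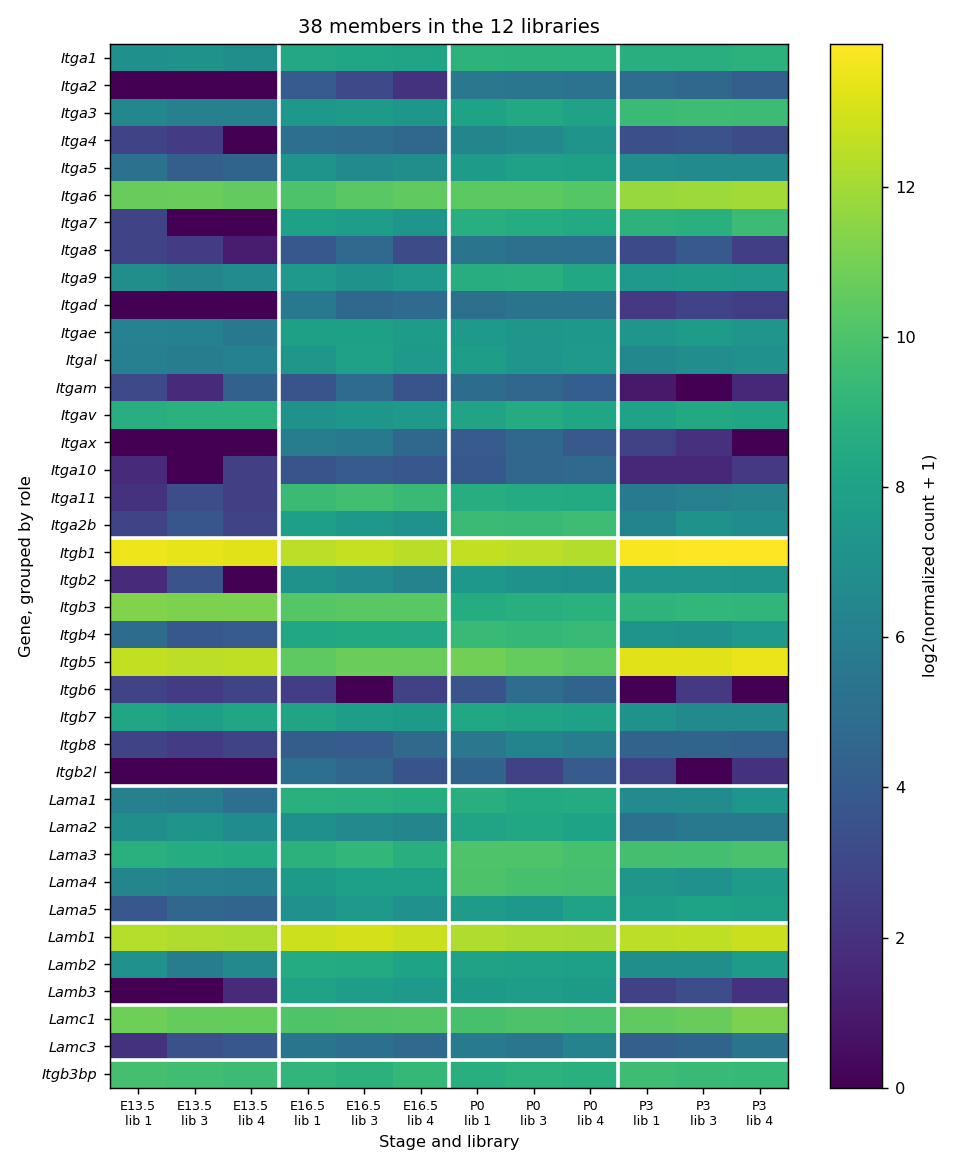
Each row is 1 of 38 members, grouped by role, and each column 1 of the 12 libraries; colour gives log2(normalized count + 1). Itgb1, Itgb5, Itga6 and Lamb1 were bright in every library, and most other rows were darkest at E13.5.

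At P3 against P0, 8 of 39 members were higher and 23 lower, against 40.1% of all genes tested that were higher and 36.4% that were lower. The median log2 fold change of the members was -1.01, and that of all genes 0.05. The members that rose at least 2-fold were Itgb5, Itga6, Itga3 and Itgb1.

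The choice of scaling matters at P0, because the size factors of its libraries were the largest (1.84 to 2.07). With library totals made equal in place of the file's scaling, the all-gene median of the log2 fold change moved by -0.91 for P3 against P0, 0.69 for P0 against E16.5, 0.53 for E16.5 against E13.5, 1.31 for P0 against E13.5 and -0.20 for P3 against E16.5. With equal totals 4 members were higher and 32 lower at P3 than at P0, against 19.7% and 58.4% of the 23221 genes tested under that scaling, and the 4 were again Itgb5, Itga6, Itga3 and Itgb1. Their log2 fold changes were then 1.85, 0.68, 0.55 and 0.52, where the median of all genes was -0.86. Shares of a chain class within a library, used below, do not depend on the scaling.

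**Figure D3:**
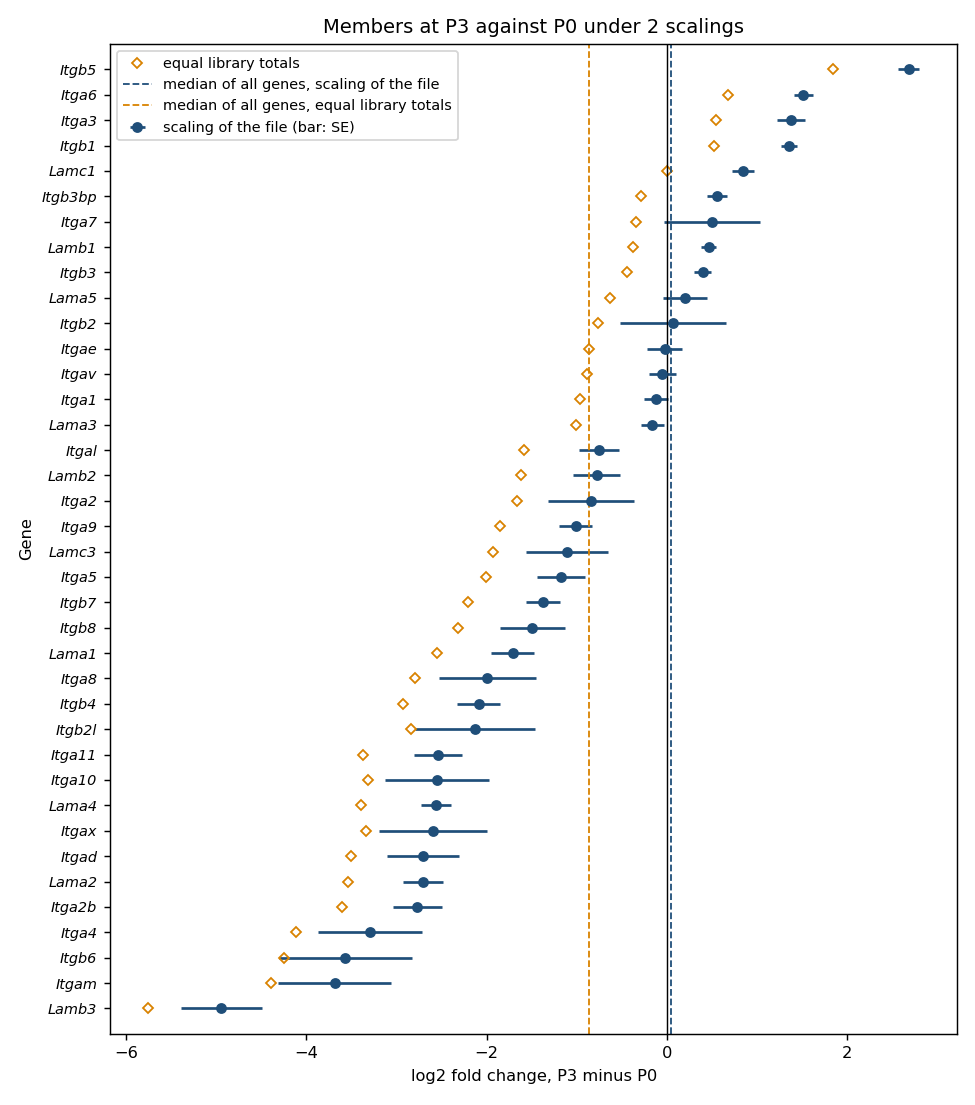
log2 fold change at P3 against P0 of 38 members, with the scaling of the file (filled circles; bars are SE) and with equal library totals (open diamonds); dashed lines mark the median of all genes under each scaling. Itgb5, Itga6, Itga3 and Itgb1 lie above 0 under both, and Lamb1, Itgb3, Itgb3bp, Lama5, Itga7 and Itgb2 change sign between them.

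Among the integrin α genes, those for laminin-binding chains led at P3. Itga6 (chr2:71745616-71858416, plus strand, GRCm38) measured 1655, 1710 and 1533 normalized counts at E13.5, 1044, 1325 and 1447 at E16.5, 1380, 1330 and 1209 at P0, and 3449, 3777 and 4014 at P3. Every P3 library was above every library of the other stages. From P0 to P3 the mean rose 2.87-fold, or 1.52 on the log2 scale (SE 0.11, limma, Benjamini-Hochberg adjusted p = 1.4e-09). From E13.5 to E16.5 it fell by 0.37 on the log2 scale (SE 0.11, limma adjusted p = 0.0046) under the scaling of the file, by 0.24 without library 1 of E16.5, but with equal totals the difference was 0.13 and with median-of-ratios factors -0.15, neither of them called.

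Itga3 (chr11:95044474-95076801, minus strand), another α gene whose chain pairs chiefly with that of Itgb1 in laminin receptors, rose at each step. It measured 88.7, 65.3 and 67.3 at E13.5, 173, 188 and 165 at E16.5, 264, 331 and 262 at P0, and 727, 756 and 744 at P3. No 2 stages overlapped. The log2 fold changes were 1.25 to E16.5, 0.69 to P0 and 1.38 to P3 (limma adjusted p = 1.4e-06, 0.0011 and 5.2e-07).

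Itga7, known for laminin binding in muscle, was nearly absent at E13.5. Its values were 6.33, 0 and 0 at E13.5, 251, 213 and 155 at E16.5, 419, 394 and 363 at P0, and 508, 459 and 728 at P3. All libraries from E16.5 on were far above those of E13.5, and library 4 stood apart at P3. Its log2 fold change to E16.5 was 6.71 (SE 0.53, limma adjusted p = 4.8e-09). The later steps, 0.95 and 0.50, did not pass the test (limma adjusted p = 0.14 and 0.40) although the stages did not overlap, and with equal totals they were 1.61 (limma adjusted p = 0.0066) and -0.34 (limma adjusted p = 0.52). The test on recovered reads with edgeR called both (adjusted p = 0.00087 and 0.030).

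Levels of different genes were compared per kilobase of exon, where longer genes no longer gain from their length. Itga6 made up 62.2% ± 1.79 of the summed α level at E13.5 and 51.4% ± 0.32 at P3, but 25.2% ± 4.52 in the E16.5 libraries and 20.5% ± 0.88 in those of P0 (SD, n = 3). Second place passed from Itgav at E13.5 (14.8% ± 1.17) to Itga2b at P0 (18.6% ± 1.85) and Itga3 at P3 (16.2% ± 0.95). At P3 Itga7 came next with 8.61% ± 1.77, so that laminin-binding α chains held the first 3 places. At E16.5 Itga11 (26.1% ± 1.36) and Itga6 did not differ beyond their spread. Their order turned with the length used, 18.6% and 36.2% per kilobase of the longest transcript. At P0 Itga6 and Itga2b lay close per kilobase of exon, and all other α genes were at 10.6% or below. Per kilobase of the longest transcript Itga6 and Itga2b stood further apart at P0, at 28.4% and 19.5%.

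**Figure D4:**
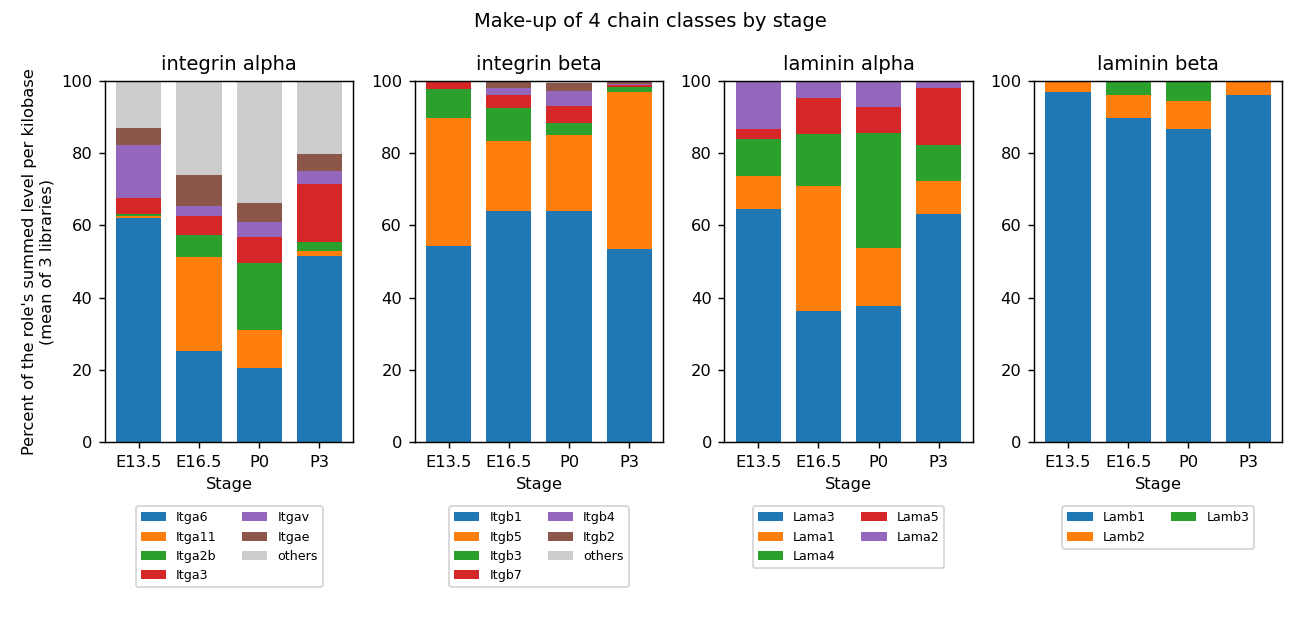
Percent of the summed level per kilobase of exon held by each gene within 4 chain classes, mean of the 3 libraries of a stage; up to 6 genes with the highest share are coloured and the rest are grey. Itga6 held 62.2% of the α class at E13.5, 20.5% at P0 and 51.4% at P3, and Itgb5 held 20.9% of the β class at P0 and 43.5% at P3.

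Other α genes peaked before birth or at birth. Itga11, whose chain forms a collagen receptor, measured 3.17, 8.71 and 5.26 at E13.5, 726, 836 and 693 at E16.5, 411, 377 and 366 at P0, and 53.3, 65.8 and 80.0 at P3. Its stages did not overlap. It rose by 6.89 on the log2 scale to E16.5 (SE 0.27, limma adjusted p = 4.9e-13) and fell by 2.53 (SE 0.27, limma adjusted p = 2.2e-07) from P0 to P3. The step from E16.5 to P0, where it fell by 0.96 (limma adjusted p = 0.0052), was not called with equal totals (-0.30, limma adjusted p = 0.32).

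Itga2b encodes the α chain of the platelet fibrinogen receptor. Its values were 6.33, 12 and 6.31 at E13.5, 232, 172 and 142 at E16.5, 717, 660 and 770 at P0, and 76.6, 136 and 108 at P3. P0 was above all other stages in every library. The log2 fold changes were 4.34, 2.00 and -2.77 from stage to stage (limma adjusted p = 2.5e-10, 9.2e-06 and 1.1e-07). The 7 platelet and megakaryocyte markers were likewise highest at P0, where they summed to 554 to 635, against 7.62 to 21.0 at E13.5, 258 to 366 at E16.5 and 62.0 to 67.8 at P3. Treml1 made up most of these sums from E16.5 on and Gp9 was the highest of the 7 at E13.5, while Gp1bb was at 0 in every library and Pf4 lay between 10.4 and 17.4 at P0. The part of such cells in the result was not tested.

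Itgav, the vitronectin and fibronectin receptor chain, was the second α gene at E13.5, where it stood at 462 ± 22.0 (SD, n = 3 here and below), and it fell to 160 ± 16.9 at E16.5 (log2 fold change -1.53, SE 0.15, limma adjusted p = 6.9e-08). It rose to 315 ± 49.4 at P0 (0.97, limma adjusted p = 3.2e-05) and stood at 304 ± 39.6 at P3. Both directions held under every scaling.

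Among the remaining α genes, Itga1 and Itga9, whose chains bind collagens and tenascin among other ligands, reached 487 ± 12.7 and 390 ± 61.0 at P0. Itga9 fell by 1.01 on the log2 scale at P3 (limma adjusted p = 0.00012), and Itga1 was not called (-0.12, limma adjusted p = 0.42) but was lower with equal totals (-0.96). Itga5, the fibronectin receptor chain, rose from 25.1 ± 10.4 at E13.5 to 230 ± 21.4 at P0 and fell to 102 ± 8.53 at P3 (log2 fold change -1.17, limma adjusted p = 0.00076). Itgae and Itgal, known from lymphocytes, had their highest means at E16.5 under the file's scaling, with 224 ± 22.5 and 197 ± 44.2. At P0 they stood at 172 ± 7.82 and 186 ± 33.2. Neither difference of P0 from E16.5 was called (-0.37 and -0.08, limma adjusted p = 0.10 and 0.78). With equal totals these differences were 0.29 (limma adjusted p = 0.18) and 0.58 (limma adjusted p = 0.025).

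The other 7 α genes, Itga2, Itga4, Itga8, Itga10, Itgad, Itgam and Itgax, had stage means of 0 to 105. Itga2, Itgad and Itgax were at the floor in every E13.5 library, and Itgam in every P3 library. Against that floor Itgax was at least 13.6-fold and Itgad at least 10.5-fold higher at E16.5. Itga4, a chain of receptors for fibronectin and VCAM1, fell at P3 from 105 ± 36.2 to 9.53 ± 1.36 (log2 fold change -3.29, SE 0.57, limma adjusted p = 6.4e-05). For Itgam, 68.7% of the exon bases lie within the exons of a second annotated gene, so its reads cannot be assigned with certainty, and for Itga10 the share was 33.5%.

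Many of these low members lay within the range of genes that serve as receptors in the nose. Of 1093 olfactory receptor genes, a set chosen after their values were seen, 17 to 31 had a read per library at E13.5, 211 to 246 at E16.5, 420 to 428 at P0 and 60 to 75 at P3. Their 99th percentile per kilobase of exon was 0.885, 10.9, 12.2 and 2.96 at the 4 stages. At E16.5, 12 members lay at or below it, and at each of the other stages 11. Itga4, Itga8, Itga10, Itgad, Itgax, Itgb6, Itgb8 and Itgb2l were among them at all 4 stages. The part of such low-level reads in the changes of those genes was not tested.

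The β genes were led by Itgb1 (chr8:128685654-128733200, plus strand), whose chain pairs with most α chains listed here. Its values were 11948, 10817 and 10145 at E13.5, 5921, 6698 and 5756 at E16.5, 6356, 5875 and 5022 at P0, and 13836, 15374 and 14959 at P3. All P3 libraries were above all E13.5 libraries, which in turn were above those of E16.5 and P0. The mean rose 2.56-fold from P0 to P3, or 1.36 on the log2 scale (SE 0.09, limma adjusted p = 6.7e-10), after it fell by 0.84 (SE 0.09, limma adjusted p = 2.4e-07) from E13.5 to E16.5. Both directions held under every scaling, whereas the lower level at P0 than at E13.5 (-0.94) became a higher one (0.23) with equal totals.

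Itgb5 (chr16:33829665-33949338, plus strand), whose chain pairs with that of Itgav in a vitronectin receptor, showed the largest postnatal rise of all members. It measured 6426, 5912 and 6215 at E13.5, 1385, 1746 and 1691 at E16.5, 1979, 1564 and 1378 at P0, and 9898, 10064 and 11434 at P3. E16.5 and P0 overlapped and lay well below the other stages. The mean rose 6.38-fold from P0 to P3 (log2 fold change 2.69, SE 0.12, limma adjusted p = 2.9e-12), and the log2 value fell by 1.95 (SE 0.12, limma adjusted p = 1e-10) from E13.5 to E16.5. Itgav, its partner gene, was not called at P3 against P0 (-0.05, SE 0.15, limma adjusted p = 0.77), and with equal totals it was lower (-0.89, limma adjusted p = 0.00011).

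Per kilobase of exon, Itgb1 and Itgb5 were the first and second β genes at every stage. Itgb1 held 54.5% ± 1.66 of the summed β level at E13.5 and 53.4% ± 1.85 at P3, and 64.0% ± 1.37 and 64.1% ± 1.28 at the stages between. From E13.5 to P3, the shares of Itgb5 were 35.3% ± 1.44, 19.3% ± 1.87, 20.9% ± 1.49 and 43.5% ± 1.88. Within each library the share of Itgb5 was thus about as low at E16.5 as at P0, and highest at P3.

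Itgb3, another β partner gene of Itgav and the partner gene of Itga2b, took a different course. It measured 2493, 2288 and 2295 at E13.5, 1226, 1327 and 1328 at E16.5, 387, 419 and 477 at P0, and 532, 594 and 563 at P3. It fell by 0.87 to E16.5 and by 1.6 to P0 on the log2 scale (limma adjusted p = 2.8e-07 and 3.4e-10), under every scaling. From P0 to P3 the log2 fold change was 0.40 (SE 0.09, limma adjusted p = 0.0011), and it turned to -0.44 with equal totals and -0.04 with median-of-ratios factors. Its share of the β level per kilobase was 8.11% ± 0.10 at E13.5, 3.36% ± 0.76 at P0 and 1.41% ± 0.07 at P3.

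Itgb4, whose chain forms the laminin receptor of hemidesmosomes with that of Itga6, was at its peak at P0. It measured 29.6, 13.1 and 14.7 at E13.5, 305, 352 and 340 at E16.5, 697, 612 and 668 at P0, and 144, 140 and 180 at P3. No 2 stages overlapped. It rose by 4.14 and 0.99 on the log2 scale and fell by 2.09 at P3 (limma adjusted p = 7.4e-11, 0.0019 and 6e-07). At P3 Itga6 and Itgb4, whose chains can pair, thus moved in opposite directions.

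Of the other 5 β genes, Itgb7, a lymphocyte homing chain, stood at 226 to 285 in the stage means before P3 and fell to 110 ± 22.2 (log2 fold change -1.37, limma adjusted p = 5.3e-06). Itgb2, the β chain of leukocytes, rose from 4.33 ± 5.77 at E13.5 to 107 ± 33.0 at E16.5 and stood at 150 ± 5.68 at P3. Itgb6 and Itgb8, the β chains known for activating latent TGF-β, reached 20.7 ± 9.47 and 60.5 ± 15.4 at P0. Itgb2l had stage means of 0 to 22.6, and its lower level at P3 than at P0 (log2 fold change -2.13, limma adjusted p = 0.0086) was not called without library 3 of P3 (-1.33, limma adjusted p = 0.059).

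That makes 2 of 18 α genes and 3 of 9 β genes higher at P3 than at P0, where 40.1% of all genes were, and 11 and 5 lower, where 36.4% were. With equal totals 2 and 2 were higher (19.7% of all genes), and 15 and 6 lower (58.4%). The summed Sertoli, Leydig and interstitial, peritubular myoid, endothelial, platelet, red blood cell and mast cell markers had lower library medians at P3 than P0. Under the file's scaling, median sums rose for the 8 germ cell markers (149830 to 260580) and the 4 mesothelial markers (255 to 292). As a percent of assigned reads, the highest library of P3 was below that of P0 for both lists. Germ cell markers took 0.612% against 0.635%, and mesothelial markers 0.00069% against 0.00113%. Among the mesothelial markers Upk1b alone had a higher mean at P3 (264 against 167), and Msln, Upk3b and Lrrn4 had lower ones. The 8 macrophage markers summed to 282 to 524 at P0 and 585 to 604 at P3, but only Cd68 and Mrc1 had higher means at P3, and Adgre1 was at 0 in every P3 library. As a percent of assigned reads, the highest library for this list was at 0.0021% at P0 and 0.0014% at P3. The 8 markers of other leukocytes summed to 3263 to 3674 at P0 and 7222 to 7567 at P3. Of these Coro1a alone had a higher mean at P3 (7277 against 2773), and the other 7, Ptprc among them (12.2 against 54.1), had lower ones. The part of other cells in the changes was not tested.

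Promoter sequences were available in the RefSeq table (GRCm38.p6) for 25 members, with 28 windows from 250 bases before to 50 bases after a start. Those of 3 of the 4 genes that rose at least 2-fold at P3 are shown, beside 2 genes that were near 0 at E13.5 and highest in late fetal life or at birth. Each is the stretch of 150 bases before the start, 5′ to 3′ on the strand of the gene, with each CpG in capitals. They lie at chr8:128685504-128685653 (plus strand) for Itgb1, chr16:33829515-33829664 (plus) for Itgb5, chr11:95076715-95076864 (minus) for Itga3, chr1:193301844-193301993 (plus) for Lamb3 and chr11:102469884-102470033 (minus) for Itga2b.
Itgb1: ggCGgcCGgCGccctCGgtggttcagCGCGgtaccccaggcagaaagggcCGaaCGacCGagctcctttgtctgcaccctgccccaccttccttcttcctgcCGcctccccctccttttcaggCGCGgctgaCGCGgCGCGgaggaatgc
Itgb5: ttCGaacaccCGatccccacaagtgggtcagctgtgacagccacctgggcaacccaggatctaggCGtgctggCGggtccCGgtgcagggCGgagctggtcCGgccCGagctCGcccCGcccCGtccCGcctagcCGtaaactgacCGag
Itga3: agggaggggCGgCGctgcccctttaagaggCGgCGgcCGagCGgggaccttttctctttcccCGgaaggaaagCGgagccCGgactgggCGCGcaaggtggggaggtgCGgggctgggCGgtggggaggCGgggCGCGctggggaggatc
Lamb3: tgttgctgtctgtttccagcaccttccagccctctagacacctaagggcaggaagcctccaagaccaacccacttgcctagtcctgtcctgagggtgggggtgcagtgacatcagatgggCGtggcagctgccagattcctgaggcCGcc
Itga2b: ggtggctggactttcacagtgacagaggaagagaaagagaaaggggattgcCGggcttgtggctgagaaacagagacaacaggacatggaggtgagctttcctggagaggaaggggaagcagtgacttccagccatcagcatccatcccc
The stretches hold 16, 14 and 16 CpG for Itgb1, Itgb5 and Itga3, and 2 and 1 for Lamb3 and Itga2b. Itga3 and Lamb3 each have a second window in the table, not shown, with 3 CpG in the same stretch for both. Over the whole window of 300 bases the counts were 27 for Itgb1, 20 for Itgb5, 24 for Itga3, 2 for Lamb3 and 6 for Itga2b, and the median was 11 over the member windows and 7 over all 32851 windows.

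High CpG counts were not limited to genes that rose at P3. Lama5, Itgav and Itga8 had 24, 24 and 23, and Itga11, which peaked at E16.5, had 16. The GC box GGGCGG, searched on both strands and itself containing a CpG, was found in 12 of the 28 member windows and in 35.7% of all windows. CCAAT was found in 4 of 28 and in 37.4% of all. Neither CACGTG nor TATAAA was found in a member window, and these letters occurred in 7.15% and 13.6% of all windows. These are matches of letters only.

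The laminin genes shared no single course. For the α chains, Lama3 led, a chain of epithelial laminins. It measured 453, 387 and 362 at E13.5, 496, 587 and 419 at E16.5, 1069, 1082 and 916 at P0, and 896, 877 and 964 at P3. Fetal stages overlapped each other, as did P0 and P3, and the libraries of P0 and P3 were all higher than the fetal ones. The rise from E16.5 to P0 amounted to 1.04 on the log2 scale (SE 0.13, limma adjusted p = 2.4e-06). The small difference of E16.5 from E13.5 (0.31, limma adjusted p = 0.033) was not called when 1 of 4 libraries was left out. Those were libraries 3 and 4 of E13.5 and 1 and 3 of E16.5, with limma adjusted p of 0.061 to 0.17. P3 did not differ from P0 by the test (-0.16, limma adjusted p = 0.26), and with equal totals it was lower (-1.0).

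Lama4, the α chain of endothelial and mesenchymal laminins, was the laminin gene that stood out most at birth. Its values were 79.2, 66.4 and 64.1 at E13.5, 192, 227 and 230 at E16.5, 1055, 929 and 908 at P0, and 162, 133 and 199 at P3. All P0 libraries were far above the rest. The log2 fold changes from stage to stage were 1.62, 2.15 and -2.56 (limma adjusted p = 1.6e-07, 1.1e-08 and 5.7e-10). The peritubular myoid markers were also highest at P0, as given above, whereas the 7 endothelial markers summed to 4469 to 5207 at E13.5, 3981 to 4061 in the E16.5 libraries, 2150 to 2554 in those of P0 and 747 to 881 in those of P3. Pecam1 (mean 4618) made up most of the sum at E13.5, where Tie1 and Emcn were at 0, and Vwf (mean 3029) most of that at E16.5. By their stage means, single endothelial markers differed in course: Pecam1 was highest at E13.5, Vwf at E16.5, Tie1, Emcn, Tek and Cdh5 at P0, and Kdr at P3. The part of these cells in the peak of Lama4 was not tested.

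Lama2, the chain of muscle and peripheral nerve laminins, reached 291 ± 30.7 at P0 and fell to 43.8 ± 6.93 at P3 (log2 fold change -2.71, SE 0.22, limma adjusted p = 8.3e-09). Lama1, the chain of the laminin of early embryos, rose from 52.3 ± 17.4 at E13.5 to 427 ± 38.4 at E16.5 (3.06, limma adjusted p = 3.3e-09) and fell from 391 ± 34.0 at P0 to 121 ± 31.2 at P3 (-1.71, limma adjusted p = 5.4e-06). Lama5, widespread in adult basement membranes, rose from 19.2 ± 5.67 at E13.5 to 146 ± 27.3 at E16.5 (2.89, limma adjusted p = 1.3e-08). It then stood at 209 ± 42.9 at P0 and 238 ± 24.6 at P3, a difference that was not called (0.21, limma adjusted p = 0.46) and turned to -0.63 with equal totals. No laminin α gene was called higher at P3 than at P0, and 3 of 5 were lower, against the 40.1% and 36.4% of all genes. With equal totals 5 of 5 were lower (58.4% of all genes). With median-of-ratios factors 4 were lower and 0 higher. Under that scaling 38.4% of all called genes were higher, and the all-gene median log2 fold change was -0.42.

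Per kilobase of exon, Lama3 held 64.6% ± 2.50 of the summed laminin α level at E13.5 and 63.1% ± 1.75 at P3, against 36.4% ± 2.36 at E16.5 and 37.8% ± 2.26 at P0. At E16.5 Lama1 (34.7% ± 1.99) was within its spread. At P0 Lama4 held 31.7% ± 1.04 and came first when the longest transcript was used (46.1% against 28.0%).

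For the β chains, Lamb1 had the highest level per kilobase of all laminin genes at every stage. It measured 5247, 4930 and 4656 at E13.5, 7448, 8192 and 7206 at E16.5, 4830, 4517 and 4431 at P0, and 5873, 6105 and 7123 at P3. Its range over all stages was thus less than 2-fold with the scaling of the file. With equal totals Lamb1 was higher at E16.5 and P0 than at E13.5, by 1.13 and 1.06 on the log2 scale. Under the file's scaling E16.5 was above all other stages in every library. With equal totals P0 did not differ from E16.5 by the test (-0.07, limma adjusted p = 0.47). It held 97.0% ± 1.01 of the laminin β level per kilobase at E13.5 and 96.2% ± 0.68 at P3, against 89.7% ± 1.33 and 86.7% ± 0.61 in between. The log2 fold change from E13.5 to E16.5 was 0.62 (SE 0.08, limma adjusted p = 2.5e-06). That from P0 to P3 was 0.47 (SE 0.08, limma adjusted p = 6.7e-05) and -0.37 with equal totals.

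Lamb3, a β chain of epithelial laminins that also hold the chain of Lama3, was detected almost solely at E16.5 and P0. Its E13.5 values were 0, 0 and 2.1, and its P3 values 5.81, 8.84 and 3.04. In between it stood at 222 ± 35.4 and 199 ± 15.3. It was at least 69.6-fold higher at E16.5 than the floor at E13.5, and at P3 it fell by 4.95 on the log2 scale (SE 0.45, limma adjusted p = 3.5e-08), the largest fitted fall of any member. Lamb2, the synaptic and kidney chain, fell from 249 ± 14.1 to 149 ± 48.5 at P3 (-0.78, limma adjusted p = 0.013). That call was lost without library 1 (limma adjusted p = 0.060) or library 3 (limma adjusted p = 0.057) of P3.

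For the γ chains, Lamc1, present in most laminins, was at 1823, 1593 and 1548 at E13.5, 1071, 1126 and 1171 at E16.5, 938, 1032 and 974 at P0, and 1486, 1639 and 2263 at P3. P3, with library 4 apart, overlapped E13.5. P0 was the lowest stage under the file's scaling, but its difference from E16.5 was not called (-0.19, limma adjusted p = 0.19), and with equal totals P0 was higher than E16.5 (0.47, limma adjusted p = 0.0056). The log2 fold change from P0 to P3 was 0.85 (SE 0.12, limma adjusted p = 9.6e-06), and 0.01 with equal totals (limma adjusted p = 0.96).

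Lamc3, a less widespread γ chain, had stage means of 8.53 to 55.8. It was lower at P3 than at P0 (26.2 ± 11.7 against 55.8 ± 16.2, log2 fold change -1.11, limma adjusted p = 0.036). That call was lost without library 1 or 4 of P0 or library 1 or 3 of P3 (limma adjusted p of 0.065 to 0.14).

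Lama3 and Lamb3, whose products join in 1 laminin, thus parted at P3. Lama3 was not called, and Lamb3 fell to 5.90 ± 2.90 from 199 ± 15.3.

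**Figure D5:**
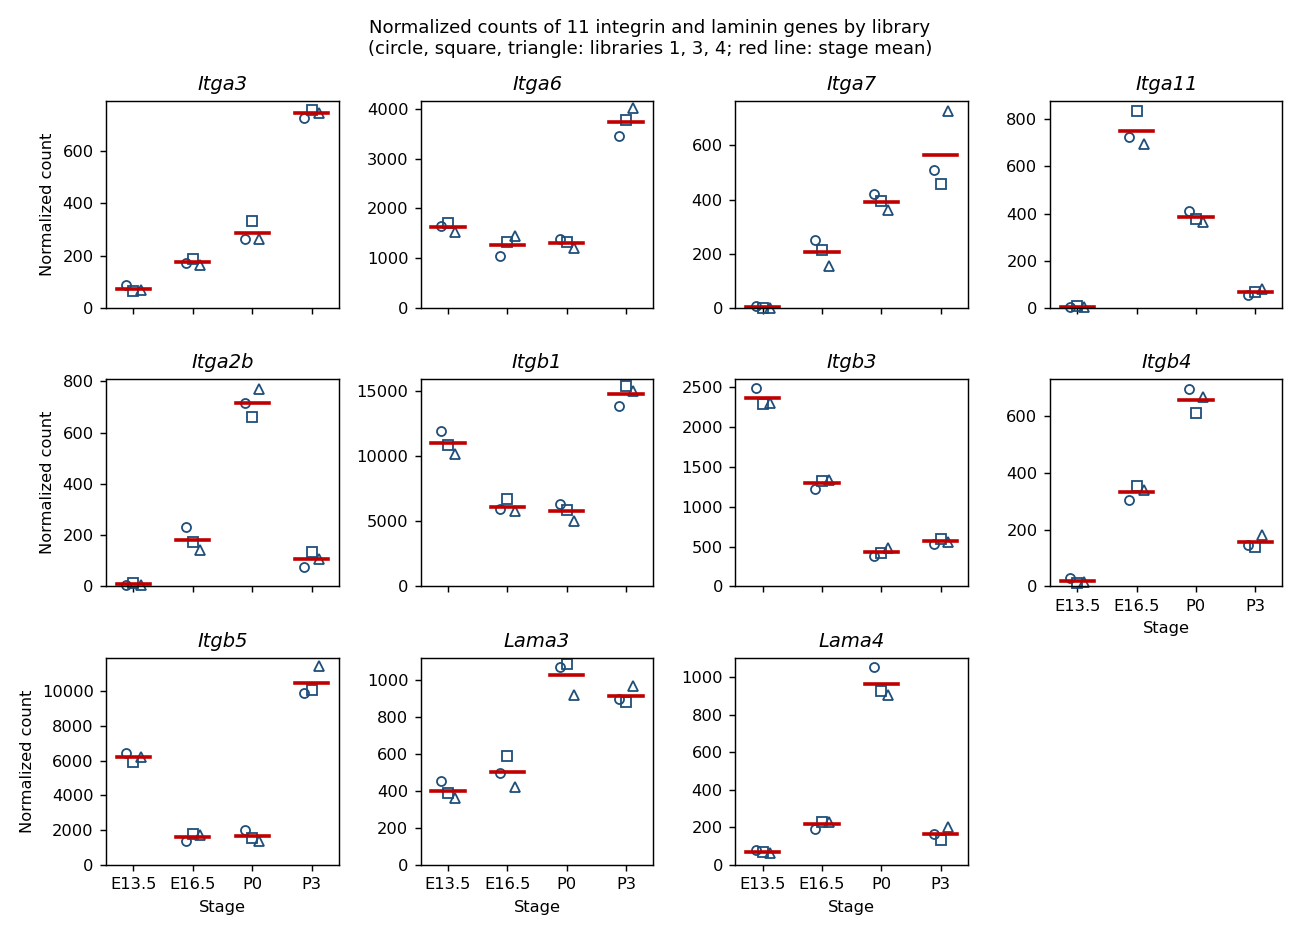
Normalized counts (linear axes starting at 0) of 11 members with a highest stage mean of at least 500 and a called change of at least 2-fold between consecutive stages; symbols are libraries 1, 3 and 4 and red lines stage means. Itga3, Itga6, Itgb1 and Itgb5 were highest at P3, where every library was above the other stages, and Itga2b, Itgb4 and Lama4 were highest at P0.

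Across fetal life the members moved mostly upward. At E16.5 against E13.5, 28 of 39 were higher and 7 lower, against 45.5% and 34.6% of all genes tested. The 7 that were lower were Itgb5, Itgav, Itgb3, Itgb1, Lamc1, Itgb3bp and Itga6. With equal totals 29 were higher and 4, Itgb5, Itgav, Itgb3 and Itgb1, lower, against 55.6% and 23.7% of all genes. The median log2 fold change was 1.81, or 1.62 with the 5 genes at the E13.5 floor set to their lower bound, against 0.31 for all genes.

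At P0 against E16.5, 16 of 39 were higher and 3 lower, against 27.6% and 33.4% of all genes. The 3 were Itgb3, Itga11 and Lamb1. The median log2 fold change was 0.51, against -0.01 for all genes, and with equal totals 26 members were higher and 1, Itgb3, lower, against 54.9% and 14.8% of all genes. The largest called rises among genes with a P0 mean above 100 were those of Lama4 (2.15), Itga2b (2.00), Itga4 (1.77) and Lama2 (1.56). Itga4 was not called without library 4 of P0 (limma adjusted p = 0.064).

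The comparisons that stay within 1 genotype tag share libraries with those above and are given side by side. At P0 against E13.5 (tag Morc1 (+/-)), 29 of 39 were higher and 7 lower, against 45.7% and 40.5% of all genes. The median log2 fold change was 2.70, or 2.12 with the genes at the floor set to their bound, against 0.20 for all genes. With equal totals 37 were higher and 2, Itgb3 and Itgb5, lower, against 66.2% and 19.6% of all genes. The other 5 that were lower under the file's scaling, Itgb1, Itgb3bp, Lamc1, Itgav and Itga6, then turned upward.

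At P3 against E16.5 (tag Morc1 (-/-)), 12 of 39 were higher and 18 lower, against 34.2% and 35.2% of all genes. With equal totals 10 were higher and 20 lower, against 29% and 40.3% of all genes. Itgb5, Itga3, Itga6 and Itgb1 were again higher, by 2.71, 2.08, 1.57 and 1.27 on the log2 scale (limma adjusted p = 4.1e-12, 4.2e-09, 1.3e-09 and 2.3e-09). Against P0 these values were 2.69, 1.38, 1.52 and 1.36. Itga7 was also higher (1.45, limma adjusted p = 0.024), a call lost without library 3 or 4 of E16.5 or library 4 of P3 (limma adjusted p of 0.052 to 0.092). The falls included those of Lamb3 (-5.10), Itga11 (-3.50), Lama1 (-1.84) and Itgb3 (-1.20).

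Itgb3bp, whose product binds the tail of the β chain of Itgb3 and is also a centromere protein, stood at 809 ± 71.8, 558 ± 57.2, 466 ± 29.7 and 688 ± 64.0 at the 4 stages. Its log2 fold change at P3 against P0 was 0.56 (limma adjusted p = 0.00028) and turned to -0.28 with equal totals. Part of its exons (8.59% of bases) lies antisense to exons of Pgm1, and whether the counting used strand is not given in the sources used here.

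Genes that work with integrins and laminins were read as lists, and each gene named with a change passed limma's test at P3 against P0. The counts stand beside 40.1% of all genes that rose and 36.4% that fell (median log2 fold change 0.05), and with equal totals 19.7% and 58.4% (median -0.86). Of 21 basement membrane partners, 4 rose and 13 fell at P3 against P0 (median log2 fold change -1.49), and with equal totals 2 and 17 (-2.33). The risers included Fbln1, a matrix linker (1812 ± 171 to 9442 ± 650, log2 fold change 2.38), and Nid2, which links laminin to collagen IV (1053 ± 95.6 to 5257 ± 864, 2.31). Npnt, the nephronectin ligand of the Itga8 product, fell from 990 ± 55.9 to 236 ± 3.61 (-2.06). Nid2, like Itgb5 and Itgb1, had been high at E13.5 (7849 ± 726) and low at E16.5 (644 ± 192).

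Of 18 other ligands of integrins, some in the matrix and some on the cell surface, 5 rose and 12 fell (median -1.45). With equal totals 2 rose and 14 fell (-2.27). Icam1, a cell surface ligand of leukocyte integrins, rose from 209 ± 6.36 to 914 ± 29.8 (2.12). Cdh1, a cell adhesion protein that is also the ligand of the Itgae product, rose from 626 ± 3.80 to 2429 ± 174 (1.95). Fgg, a fibrinogen chain, fell from 382 ± 45.8 to 31.5 ± 12.5 (-3.63).

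Of 15 laminin receptors other than integrins, 6 rose and 7 fell (median -0.16), shares near those of all genes, and with equal totals 2 and 11 (-1.0). The syndecan genes Sdc1 (825 ± 59.6 to 3914 ± 279, 2.24) and Sdc4 (4856 ± 86.2 to 20222 ± 393, 2.06) rose. Sgce, a sarcoglycan gene, fell from 563 ± 105 to 129 ± 27.3 (-2.12).

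Of 41 integrin adaptors and signalling genes, 40 passed the filter; 23 rose and 11 fell (median 0.52), whereas with equal totals 9 rose and 22 fell (-0.32). Ilk was the gene that did not pass. Lims2, a partner of integrin-linked kinase, fell from 1194 ± 42.7 to 90.5 ± 19.9 (-3.73), Dab2, an endocytic adaptor, from 846 ± 195 to 91.8 ± 0.64 (-3.16), and Fermt1, a kindlin, from 108 ± 27.0 to 11.2 ± 4.05 (-3.18). Of 7 tetraspanins, which associate with integrins in the membrane, 4 rose and 1 fell (median 0.91), and with equal totals 3 and 3 (0.08). Cd82 rose from 256 ± 38.5 to 2280 ± 66.0 (3.16) and Cd9 from 3268 ± 32.9 to 20556 ± 1251 (2.65), while Tspan8 fell from 1300 ± 79.9 to 499 ± 49.3 (-1.38).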

How the data were processed

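The authors deposited 1 table of normalized counts (signal: each gene's reads over the size factor of the library) for 12 libraries. Per the labels' protocols, libraries were made with SMART-seq v4 and TruSeq kits. The submitters' processing notes name bcl2fastq 2.20, cutadapt 1.18, HISAT2 2.1.0, featureCounts 1.5.2 and DESeq2 1.26.0, and the builds mm10 and GRCm38. All values (100% in each library) proved whole multiples of what 1 read is worth (tolerance 0.001), so reads were recovered. Counting cannot resolve PCR copies.

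Symbols, exons and lengths came from the GENCODE annotation of GRCm38. limma 3.58.1 (R 4.3.3) tested log2(normalized count + 1) of the 22384 genes that reached 10 normalized counts in 3 or more libraries, in 1 fit of 4 stages (8 residual degrees of freedom), with Benjamini-Hochberg adjustment and a threshold of 0.05. Log2 fold changes are on that scale and understate changes of low genes. Alternatives were TMM, median-of-ratios and equal-total scaling, pseudocounts of 0.1 and 10, no filter, a fold minimum, only the 2 stages compared, edgeR 4.0.16 and DESeq2 1.42.0 on recovered reads, leaving out libraries, and a block on the column number. On simulated data limma recovered 99.0% of 200 genes changed 4-fold among 21105 genes in P3 against P0. Only those genes changed, at P0 alone, with known size factors, and the lowest genes were not among them. The simulation thus cannot address the choice of scaling or the calls of low members. Per-kilobase levels used the union of exons; Python 3.11.15 drew the figures.

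Members and lists were chosen with earlier results of these data known. Members are given by library where the highest stage mean is at least 500 and a consecutive change is called and at least 2-fold; Lamb1 and Lamc1 were added after their values were seen. Of each list, at most the 3 genes with the largest called change P3 against P0 and a stage mean of at least 500 are named. The values of 1 member are not reported here; it is included in the counts.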

Additional observations from a re-analysis of the deposited data

How the results depend on the processing

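Of 195 results (39 members in 5 comparisons), 136 kept their direction and their side of the threshold under every alternative; of 4485 member results under alternatives, 96 lost a call, 81 gained one and 19 reversed, that is, changed sign with at least 1 of the 2 values past the test. Counts of members moved by more than 1.5 times in these cases. Higher at P3 than at P0 (8): 4 with equal totals, 5 with median-of-ratios factors, 4 with a log2 fold change of at least 1. P0 against E16.5 (16 higher, 3 lower): 26 and 1 with equal totals, 10 and 1 (11 in all) with the fold minimum, 5 lower with DESeq2, 6 lower with only the 2 stages fitted. E16.5 against E13.5 (7 lower): 4 with equal totals, 2 with the fold minimum. Lower at P0 than at E13.5 (7): 2 with equal totals, 4 with median-of-ratios factors, 2 with the fold minimum. Higher at P3 than at E16.5 (12): 6 with the fold minimum. Reversed with equal totals were, at P3 against P0, Itgb3 (-0.44), Itgb3bp (-0.28), Lama5 (-0.63) and Lamb1 (-0.37); at P0 against E16.5, Itgal (0.58), Itgb1 (0.57), Itgb3bp (0.41) and Lamc1 (0.47); at E16.5 against E13.5, Itga6 (0.13); and at P0 against E13.5, Itga6 (0.85), Itgav (0.60), Itgb1 (0.23), Itgb3bp (0.38), Lamb1 (1.06) and Lamc1 (0.42). Median-of-ratios factors reversed Itgb3 at P3 against P0 (-0.0395), and Itga6 (0.16) and Lamb1 (0.37) at P0 against E13.5; TMM reversed Lamb1 there (0.21). These alternatives differ from the main analysis by their scaling; which scaling is right was not tested. Leaving out 1 library gave 28 to 31 changed members for P3 against P0 (31 with all), 17 to 21 (19) for P0 against E16.5, 34 to 35 (35) for E16.5 against E13.5, 35 to 37 (36) for P0 against E13.5 and 25 to 31 (30) for P3 against E16.5. Omitting library 4 of E16.5 and library 1 of P0 together, where Leydig and interstitial markers were highest, was chosen after seeing the data; it reversed no member and left 8 higher and 21 lower for P3 against P0. A replicate block on the number in the column heads, which is not the labels' replicate number, was also added after seeing the files: it left 31, 19, 35, 36 and 29 changed members in these 5 comparisons and ended 1 call of a member, that of Lama4 at P3 against E16.5. Libraries of 1 number did not deviate together (correlations of -0.0356 to 0.0423 over 18 pairs). One read was worth 0.483 to 1.09 normalized counts, so members with stage means under 10 rest on few reads.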
